A study of Mus musculus with 16 samples.

Results

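Activated Foxp3+ (TFoxp3+) and activated Foxp3− (TFoxp3−) CD4+ T cells were compared here in cytosolic mRNA alone, the steady-state pool from which ribosomes draw. The comparison was defined by the sample titles, without use of measured values. It holds 4 of the 16 arrays of the series, 2 of activated TFoxp3+ cells (arrays 13 and 15) and 2 of activated TFoxp3− cells (arrays 9 and 11), and all 16475 genes on them. Spleen and lymph node cells were taken from female C57BL/6 mice, 6 to 12 weeks old, with GFP knocked into Foxp3, so both subsets carried the reporter allele. They were enriched on CD4 and sorted on GFP, to a purity stated as above 97%. Both groups then spent 36 h on coated CD3 and CD28 antibody (5 µg/ml) in the presence of human IL-2 (100 U/ml), and cycloheximide (100 µg/ml) was added at the end of the culture. The other arrays are of polysome-associated mRNA and of cells taken directly ex vivo, each ex vivo sample pooled from 2 experiments. For the ex vivo cells cycloheximide (100 µg/ml) was present in every buffer and medium from the start. The other arrays enter only where they bear on a gene described here.

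Foxp3 is the transcription factor of regulatory T cells, which hold other T cells in check. These cells carry the high-affinity IL-2 receptor and the inhibitory receptor CTLA-4 and make little IL-2 themselves. Foxp3− CD4+ T cells are mostly naive and memory helper T cells, which answer CD3 and CD28 signals with IL-2, effector cytokines and rapid division. Foxp3+ cells stimulated through the T cell receptor in culture are known to divide poorly.

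The values are log2 intensities, so that 1 unit is a doubling. A difference is TFoxp3+ minus TFoxp3− throughout and was tested with limma on the 4 arrays, and a gene was called at an adjusted p under 0.15 over all genes. Replicates differed far more than in ex vivo cells: 1489 genes were over 3-fold apart between the TFoxp3+ arrays and 946 between the TFoxp3− arrays, against 41 between ex vivo TFoxp3+ arrays and 18 between ex vivo TFoxp3− arrays. Replicate correlation across genes was 0.888 in TFoxp3+ and 0.941 in TFoxp3− cells, and 0.859 to 0.873 between arrays of different subsets. The spread of the TFoxp3+ arrays was narrower, with interquartile ranges of 2.62 and 2.67 against 3.34 and 3.03 in TFoxp3− arrays. The labels show the activated arrays in 2 series of identifiers, 1 for each subset, so that subset and array series cannot be told apart in activated cells.

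In all, 119 genes were higher (0.722% of those tested) and 371 lower (2.25%) in activated TFoxp3+ cells, 2.97% together. These shares are the background for the counts of calls in the gene lists below. Means were over 3-fold apart for 433 genes in the higher (2.63%) and 1113 in the lower direction (6.76%), most of them not called. All calls lay at adjusted p-values of 0.0787 or more, 0 genes passed 0.05 in limma (2552 had an unadjusted p under 0.05), and about 74 of the 490 calls are expected to be false at this threshold. No gene was called without array 9, array 11 or array 15, when 1451, 1820 and 2523 genes had an unadjusted p under 0.05. Without array 13, 148 genes were called higher and 404 lower. The arrays of the subsets did not overlap for any called gene. Over all genes, both TFoxp3+ arrays stood above both TFoxp3− arrays for 30.1% and below them for 19.8%. The median difference over all genes was 0.13, and it ran from 0.30 among genes of modest level to −0.49 and −0.41 in the 2 highest deciles, as the plot of difference against level shows. After cyclic loess, which removes this dependence on level, 92 genes were called higher and 184 lower, and 265 of these 276 calls were shared with those as deposited.

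**Figure D1:**
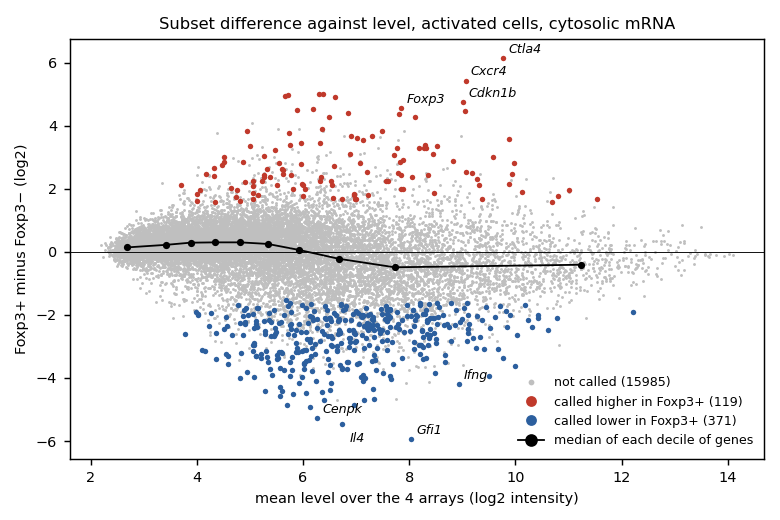
Difference between activated TFoxp3+ and TFoxp3− cells in cytosolic mRNA (log2, y axis) against the mean level of each gene over the 4 arrays (log2 intensity, x axis). Red points are the 119 genes called higher and blue points the 371 called lower in TFoxp3+ cells, and the black line joins the medians of each decile of genes, from 0.30 at modest to −0.41 at the highest levels.

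Genes that mark regulatory T cells were the group with the most calls in favour of TFoxp3+ cells: 11 of 27 measured were higher and 0 lower, with a list median of 1.61. Foxp3 itself, on whose reporter the cells had been sorted, read 10.48 and 9.76 in TFoxp3+ cells, against 5.28 and 5.86 in TFoxp3− cells. The difference was 4.55 (SE 0.42, adjusted p = 0.0803), a 23.4-fold higher level. Ctla4, the inhibitory receptor that competes with CD28 for its ligands, read 12.75 and 12.94 in TFoxp3+ cells, against 7.44 and 5.98 in TFoxp3− cells, the largest difference of any called gene (6.13, SE 0.56, adjusted p = 0.0787). In TFoxp3+ cells Ctla4 was thus close to the top of the measured range, and its TFoxp3− replicates were 1 of the more widely separated pairs among these genes. A lower level in a bulk sample cannot tell fewer cells of a type from less RNA per cell.

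Surface molecules of regulatory T cells made up most of the other calls in this list. Nt5e, the ectoenzyme CD73 that makes adenosine, read 9.54 and 8.58 in TFoxp3+ cells, against 4.05 and 4.23 in TFoxp3− cells (difference 4.92, SE 0.43, adjusted p = 0.0787). Itgae, the integrin chain CD103 that binds E-cadherin on epithelium, read 8.09 and 9.17 in TFoxp3+ cells, against 4.63 and 4.07 in TFoxp3− cells (4.28, adjusted p = 0.111). The TFoxp3− levels of both genes lay under the lowest array median of 4.88, so the sizes of these differences are uncertain. Il2ra, the high-affinity chain CD25 of the IL-2 receptor, read 11.38 and 10.77 in TFoxp3+ cells, against 7.78 and 8.36 in TFoxp3− cells (3.0, SE 0.40, adjusted p = 0.114). Unlike Nt5e and Itgae, Il2ra was well expressed in both subsets, and its groups were still about 3 units apart.

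The costimulatory receptor Icos differed by 3.38 (adjusted p = 0.114), with 9.87 and 10.1 in TFoxp3+ cells, against 7.07 and 6.14 in TFoxp3− cells. Tnfrsf9, the costimulatory receptor 4-1BB, differed by 1.90 and was above 9 on every array. Gpr83, a receptor enriched in regulatory T cells, differed by 3.10, and Gzmb, the protease granzyme B, by 2.37. Both Ikaros family factors of the list were called. Ikzf2 (Helios) read 8.27 and 6.62 in TFoxp3+ cells, against 3.87 and 4.27 in TFoxp3− cells (3.38, adjusted p = 0.139), and Ikzf4 (Eos), a corepressor partner of Foxp3 protein, differed by 2.24 (adjusted p = 0.126). Of the remaining 16 genes of the list none was called, and 10 of these had both TFoxp3+ arrays above both TFoxp3− arrays. Tnfrsf18, the receptor GITR, was close to the top of the range in each subset, with 12.34 and 12.92 in TFoxp3+ cells and 12.05 and 11.73 in TFoxp3− cells (0.74, adjusted p = 0.414). Il10 (1.61, adjusted p = 0.38) and Nrp1 (1.62, adjusted p = 0.611) varied too much between replicates for a call, Nrp1 with 3.18 and 7.33 in the TFoxp3+ pair alone.

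Beside Foxp3, its noncoding neighbour Flicr was among the 12 largest differences in this direction (4.99, SE 0.78, adjusted p = 0.119). It read 9.96 and 7.77 in TFoxp3+ cells, against 3.63 and 4.12 in TFoxp3− cells. RefSeq places Flicr on chromosome X overlapping Foxp3 and Ppp1r3f, and whether its probes lie in the shared stretch was not tested.

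Receptors for cytokines and chemokines formed the next group. Of 27 cytokine receptors 5 were higher, Il2ra among them, and 1 lower, with a median of 0.62. Ifngr1, the ligand-binding chain of the interferon gamma receptor, read 10.52 and 9.98 in TFoxp3+ cells, against 5.86 and 6.07 in TFoxp3− cells (4.29, SE 0.35, adjusted p = 0.0787). Il6st (gp130), the signalling chain shared by the IL-6 family of receptors, read 9.33 and 9.50 in TFoxp3+ cells, against 6.24 and 6.00 in TFoxp3− cells (3.30, SE 0.31, adjusted p = 0.0803). Within each subset the replicates of these 2 genes lay close together. Il1r2, a decoy receptor that binds IL-1 without signalling, differed by 3.24 (adjusted p = 0.11), and Tgfbr2, the chain that binds TGF-beta, by 2.24 (adjusted p = 0.134). In the opposite direction Il12rb1, a chain of the IL-12 and IL-23 receptors, read 8.24 and 7.52 in TFoxp3+ cells, against 10.02 and 10.64 in TFoxp3− cells (−2.45, adjusted p = 0.13). After cyclic loess this last call was lost.

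Among 25 chemokine receptors and homing molecules Cxcr4, Itgb7 and Itgae, 3 in all, were higher and 0 lower (median 0.95). Cxcr4, the receptor for CXCL12 that retains cells in bone marrow and tissue, read 11.48 and 12.05 in TFoxp3+ cells, against 6.00 and 6.70 in TFoxp3− cells. At 42.8-fold (5.42, SE 0.42, adjusted p = 0.0787) it was second only to Ctla4 among the higher genes named by size. Itgb7, the beta chain of gut-homing integrins and the partner of Itgae, differed by 1.78 at high levels throughout (11.67 and 11.73 in TFoxp3+ cells, against 9.95 and 9.88 in TFoxp3− cells, adjusted p = 0.122). Ccr8 (1.79, adjusted p = 0.157) narrowly missed the threshold, and S1pr1, the receptor that guides lymphocytes out of lymph nodes, had a difference of 3.63 but unlike TFoxp3− replicates of 6.75 and 4.51 (adjusted p = 0.167).

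Genes of adhesion and cytoskeleton that are typical of memory and effector T cells gave 5 of 24 higher, with Itgae, and 0 lower (median 0.82). The calcium-binding protein S100a4 read 11.16 and 11.37 in TFoxp3+ cells, against 7.63 and 6.00 in TFoxp3− cells (4.45, SE 0.61, adjusted p = 0.114). Its neighbour in the family, S100a6, read 11.49 and 11.86 in TFoxp3+ cells, against 8.63 and 7.58 in TFoxp3− cells (3.57, adjusted p = 0.114). For both genes the TFoxp3+ pair was tight and the TFoxp3− pair was not. Ahnak, a giant scaffold protein beneath the membrane, differed by 2.83, and Crip1, a LIM domain protein, by 1.69 at levels above 10 on all 4 arrays. Vim (2.28, adjusted p = 0.278) and Anxa2 (2.59, adjusted p = 0.245) were not called.

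In the PI3K, AKT and FOXO list 3 of 26 genes were higher and 1 lower, and 1 and 1 after cyclic loess. Sgk1, a kinase related to AKT that is induced by salt and growth factors, read 10.37 and 9.62 in TFoxp3+ cells, against 6.19 and 5.05 in TFoxp3− cells (4.37, SE 0.53, adjusted p = 0.114). Rheb, the GTPase that switches on mTOR complex 1, read 4.49 and 4.34 in TFoxp3+ cells, against 6.85 and 7.77 in TFoxp3− cells (−2.90, adjusted p = 0.117). The other 2 calls were Pik3cg, a catalytic PI3K subunit (1.88, adjusted p = 0.15), and Prkacb, which encodes a catalytic subunit of the cAMP-dependent kinase (2.71, SE 0.53, adjusted p = 0.15), both just inside the threshold. Foxo3 had overlapping arrays, 6.62 and 7.48 in TFoxp3+ cells against 6.64 and 8.65 in TFoxp3− cells.

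Rapgef3 and Akap13, which are in none of the lists, were also among the genes named. Rapgef3 (EPAC1), an exchange factor for RAP1 that cAMP activates directly, read 8.27 and 9.33 in TFoxp3+ cells, against 4.02 and 3.55 in TFoxp3− cells (5.01, SE 0.48, adjusted p = 0.0803). Akap13, which anchors protein kinase A, read 9.0 and 9.27 in TFoxp3+ cells, against 5.33 and 5.58 in TFoxp3− cells (3.68, SE 0.32, adjusted p = 0.0787).

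Cdkn1b (p27), an inhibitor of cyclin-dependent kinases that holds cells in G1, was called higher among 32 cyclins, CDK inhibitors and RB-E2F genes. It read 11.42 and 11.33 in TFoxp3+ cells, against 6.68 and 6.59 in TFoxp3− cells. Its level was 26.8-fold higher (4.74, SE 0.30, adjusted p = 0.0787), with close replicates in each subset. Not called were Ccne1 (0.17), Ccnd3 (0.98), Cdk4 (−1.33), Cdc25a (−2.00) and Cdk6, whose 3.53 rested on TFoxp3− replicates of 7.08 and 4.96 (adjusted p = 0.184). Pdcd4, an inhibitor of the translation helicase eIF4A, was likewise high and tight in TFoxp3+ cells, with 11.18 and 11.59 against 8.55 and 8.55 in TFoxp3− cells (2.83, SE 0.33, adjusted p = 0.111). It was the 1 call among 14 genes of cap-binding and eIF4E control, of which Eif4e (−1.24, adjusted p = 0.287), Eif4b (−1.27) and Eif4a1 (−1.26) did not pass. Further single calls in this direction were Dusp1 (3.10), a phosphatase that turns off MAP kinases, Ddit4 (1.97), an inhibitor of mTOR complex 1, and Cflar (2.26), an inhibitor of caspase 8.

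The remaining genes named by size were of diverse function. Ino80c, a subunit of the INO80 chromatin remodeller, read 8.08 and 8.31 in TFoxp3+ cells, against 3.37 and 3.08 in TFoxp3− cells (4.97, SE 0.32, adjusted p = 0.0787). Cpe, a carboxypeptidase that trims peptide hormones, differed by 4.95 (adjusted p = 0.0787), the zinc finger protein Zfp605 by 4.52 (adjusted p = 0.111) and Dennd5a, a regulator of RAB GTPases, by 4.51 (adjusted p = 0.0812). In TFoxp3− cells these 4 genes lay between 3.06 and 4.46, under every array median, so their folds are uncertain while the direction was the same on all arrays.

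**Figure D2:**
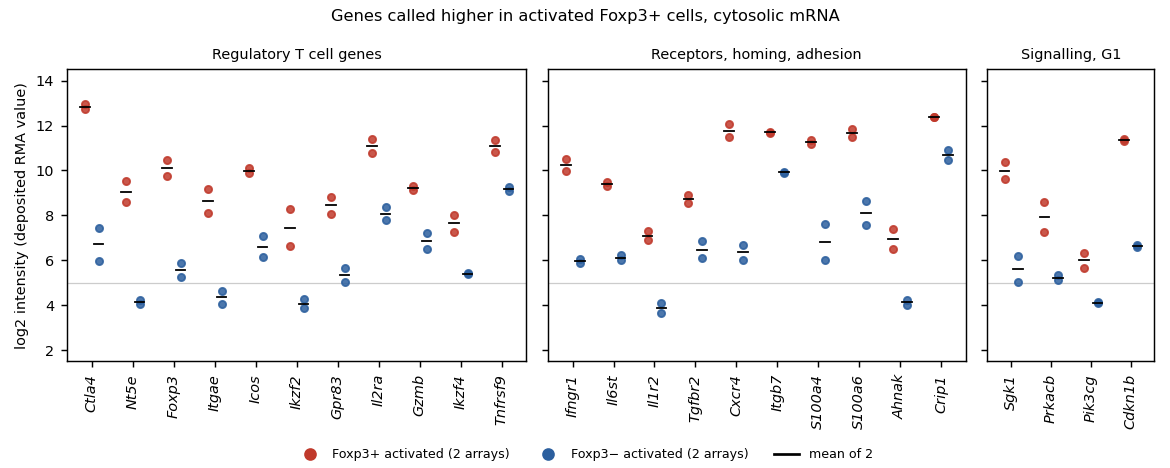
Log2 intensity (y axis) of genes called higher in activated TFoxp3+ cells, with each of the 2 TFoxp3+ arrays in red on the left and each of the 2 TFoxp3− arrays in blue on the right of each gene, and bars at the means. The grey line is at 5, near the array medians. In every gene both red points lie above both blue points, with the widest gap in Ctla4 and the tightest replicates in Cdkn1b and Itgb7.

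Effector cytokines were called in the lower direction: of 29 cytokines and effector ligands 0 were higher and 5 lower (median −0.91, and −0.90 after cyclic loess, when 3 were lower), and 18 of the 29 had both TFoxp3+ arrays below both TFoxp3− arrays. Il4, the cytokine of type 2 helper cells, read 3.92 and 4.09 in TFoxp3+ cells, against 9.69 and 9.23 in TFoxp3− cells (−5.45, SE 0.34, adjusted p = 0.0787). Ifng, interferon gamma of type 1 helper cells, read 7.77 and 5.90 in TFoxp3+ cells, against 10.82 and 11.24 in TFoxp3− cells (−4.19, SE 0.69, adjusted p = 0.119). Csf2, the growth factor GM-CSF, read 4.66 and 4.23 in TFoxp3+ cells, against 8.0 and 9.21 in TFoxp3− cells (−4.16, SE 0.51, adjusted p = 0.114). Il4 and Csf2 were thus at levels below the array medians in TFoxp3+ cells, while Ifng was above them on each array and uneven between the replicates.

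The chemokine Xcl1 differed by −3.70 (adjusted p = 0.0999) and Il17a, the cytokine of type 17 helper cells, by −1.78 (adjusted p = 0.15). Il2, the growth factor of T cells, was not called. Its arrays read 8.74 and 5.70 in TFoxp3+ cells, against 10.20 and 11.39 in TFoxp3− cells, a difference of −3.58 (SE 1.10, adjusted p = 0.259). The groups did not overlap, but the gap inside the TFoxp3+ pair was almost as large as the difference between the groups. Ccl1 (−3.75, adjusted p = 0.159) was likewise uneven in TFoxp3+ cells, with 7.22 and 5.02. At the other end of the list stood Ccl5 (2.25), Il10 (1.61) and Ltb (0.80), none of them called.

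Promoter windows of 2 of the cytokines called lower in TFoxp3+ cells are shown. NFAT, the factor that CD3 signals activate, is known to bind sites with GGAAA at their core. The windows run from 250 bases before to 50 bases after a transcript start in RefSeq (GRCm38.p6), read on the strand of the gene. Capitals mark GGAAA on either strand. The Il4 window is chr11:53618616-53618915, minus strand, the upstream of 2 windows listed for that gene, and the Ifng window is chr10:118440796-118441095, plus strand.
Il4: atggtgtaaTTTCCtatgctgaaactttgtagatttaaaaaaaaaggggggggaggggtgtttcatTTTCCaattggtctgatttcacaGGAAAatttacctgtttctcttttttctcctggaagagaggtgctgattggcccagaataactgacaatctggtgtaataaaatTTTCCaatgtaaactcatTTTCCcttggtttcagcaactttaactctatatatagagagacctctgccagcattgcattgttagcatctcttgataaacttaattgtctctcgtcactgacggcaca
Ifng: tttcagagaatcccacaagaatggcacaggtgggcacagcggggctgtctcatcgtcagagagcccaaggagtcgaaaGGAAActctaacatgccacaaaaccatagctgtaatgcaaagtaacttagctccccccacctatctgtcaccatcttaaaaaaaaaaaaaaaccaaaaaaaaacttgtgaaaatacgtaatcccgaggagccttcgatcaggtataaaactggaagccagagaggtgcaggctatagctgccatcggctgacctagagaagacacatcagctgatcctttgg
The Il4 window holds 5 such words and the Ifng window 1. Of the 15838 windows of tested genes 58.9% hold at least 1, of 123 windows of genes called higher 56.1% and of 368 of genes called lower 59.0%. Of 24 windows of the cytokine list 91.7% hold at least 1, and of the 6 windows of its genes called lower 83.3%. A match describes letters only.

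Genes of DNA replication and mitosis also gave calls in the lower direction and none in the higher. Called lower were 8.51% and 10.7% of the 2 lists, against 2.25% of all genes. Lower calls were more frequent at high levels, with 106 in the decile of genes from 7.09 to 8.36. The replication list averaged 7.27 and 7.24 on TFoxp3+ arrays and 8.40 on both TFoxp3− arrays. The mitosis list averaged 6.29 and 6.24, against 7.18 and 7.11. Neither list was compared with genes of like level. Of 47 DNA replication genes 4 were lower and 0 higher, with a median of −1.18 (−0.84 after cyclic loess, when 1 was still called lower), and 30 had both TFoxp3+ arrays below both TFoxp3− arrays against 2 above. Rfc4, a subunit of the clamp loader, read 4.82 and 5.33 in TFoxp3+ cells, against 8.69 and 9.66 in TFoxp3− cells (−4.10, SE 0.46, adjusted p = 0.111). Prim1, the primase that starts new strands, read 5.78 and 4.48 in TFoxp3+ cells, against 8.04 and 8.21 in TFoxp3− cells (−3.0, adjusted p = 0.125). Cdt1, which licenses origins, read 7.34 and 8.32 in TFoxp3+ cells, against 10.67 and 10.11 in TFoxp3− cells (−2.56, adjusted p = 0.139). The fourth call was Gins4 of the replicative helicase (−2.24, adjusted p = 0.114). Other subunits of the same machines were spread widely and were not called: Gins1 was at −3.0 (adjusted p = 0.205), Mcm7 at −1.65, Mcm2 at −1.16 and Mcm4 at 0.79.

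Among 56 mitosis genes 6 were lower and 0 higher (median −0.63, and −0.37 after cyclic loess, when 5 were lower), and all but Smc4 and Ncaph of these act at the centromere or kinetochore. Cenpk, of the inner kinetochore, read 3.62 and 3.61 in TFoxp3+ cells, against 9.13 and 8.66 in TFoxp3− cells (−5.27, SE 0.33, adjusted p = 0.0787). Sgo1 (shugoshin), which guards cohesin at centromeres, read 4.57 and 5.02 in TFoxp3+ cells, against 9.63 and 9.36 in TFoxp3− cells (−4.70, SE 0.34, adjusted p = 0.0787). Cenph differed by −3.27 and Spc25, of the outer kinetochore, by −2.51, while the condensin subunits Smc4 and Ncaph differed by −2.27 and −1.69. The kinetochore genes were near or under the array medians in TFoxp3+ cells, which makes their folds uncertain, whereas Smc4 stood at 6.10 and 6.02 against 8.32 and 8.35. Other mitotic genes did not pass: Mki67, a proliferation marker, read 6.13 and 6.41 in TFoxp3+ cells, against 8.94 and 7.84 in TFoxp3− cells (−2.12, adjusted p = 0.17), and Top2a (−0.77), Plk1 (−0.47), Ccna2 (−0.64) and Anapc4 of the anaphase-promoting complex (−0.14) were not called.

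E2F factors are known to drive many replication genes, and the window of Cdt1, chr8:122567765-122568064 on the plus strand of GRCm38.p6, is shown as the 1 window among the called replication and mitosis genes with an E2F word. Searched were TTTCCCGC, TTTCGCGC, TTTGCCGC and TTTGGCGC on both strands, the first of which contains GGAAA in reverse, and the capitals mark the match.
Cdt1: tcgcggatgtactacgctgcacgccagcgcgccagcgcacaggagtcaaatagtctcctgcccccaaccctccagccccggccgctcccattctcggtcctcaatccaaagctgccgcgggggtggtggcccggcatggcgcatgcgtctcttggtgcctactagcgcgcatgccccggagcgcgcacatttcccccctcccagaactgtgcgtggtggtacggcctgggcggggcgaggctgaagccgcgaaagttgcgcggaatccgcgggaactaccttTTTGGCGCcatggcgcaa
Such a word is held by 3.25% of all windows, by 18.2% of 99 windows of the replication and mitosis lists, by 3.8% of windows of genes called lower and by 0.813% of windows of genes called higher.

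**Figure D3:**
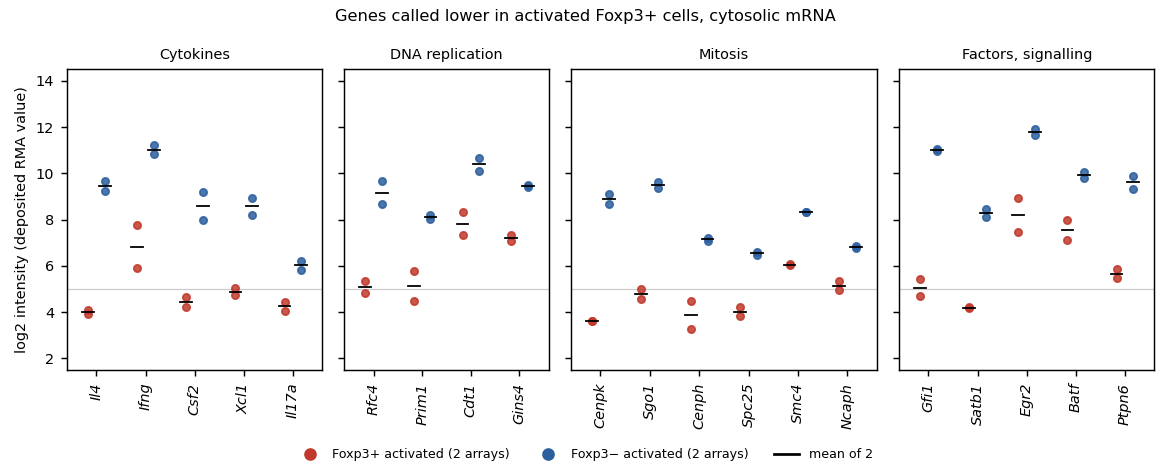
Log2 intensity (y axis) of genes called lower in activated TFoxp3+ cells, with the 2 TFoxp3+ arrays in red on the left and the 2 TFoxp3− arrays in blue on the right of each gene, and bars at the means. The grey line is at 5, near the array medians. In TFoxp3+ cells Il4, Csf2, Cenpk, Spc25 and Satb1 lie under the line, while Ifng, Egr2, Batf and Cdt1 lie above it.

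Transcription factors held the largest difference in this direction. Gfi1, a repressor that acts in developing and activated lymphocytes, read 5.43 and 4.69 in TFoxp3+ cells, against 10.95 and 11.07 in TFoxp3− cells, a 62-fold lower level (−5.95, SE 0.38, adjusted p = 0.0787). Satb1, an organizer of chromatin loops that Foxp3 is known to repress, read 4.21 and 4.19 in TFoxp3+ cells, against 8.45 and 8.13 in TFoxp3− cells (−4.09, SE 0.32, adjusted p = 0.0787). Egr2, which is induced by T cell receptor signals, read 7.45 and 8.92 in TFoxp3+ cells, against 11.68 and 11.9 in TFoxp3− cells (−3.61, SE 0.56, adjusted p = 0.119). Batf, a partner of IRF4 in effector T cells, differed by −2.37 (adjusted p = 0.127), with 7.97 and 7.14 in TFoxp3+ cells, against 10.06 and 9.79 in TFoxp3− cells. Gfi1 and Satb1 were near or under the array medians in TFoxp3+ cells, and Egr2 and Batf were still well above them. In the lists that hold these genes, 1 of 33 immediate early, NFAT and NF-kB genes was higher (Dusp1) and 2 were lower (Egr2 and the MAP kinase phosphatase Dusp10, −1.77), and 2 of 29 helper lineage factors were higher (Ikzf2 and Ikzf4) and 1 lower. After cyclic loess the immediate early list had 1 higher and 0 lower, and the lineage factors also 1 and 0. The lineage factors Tbx21 (−2.04, adjusted p = 0.349) and Gata3 (−0.99, adjusted p = 0.52) were not called, nor were Fos (−0.50), Nr4a1 (0.31) and Nfatc1 (−0.86).

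Of 34 genes of the T cell receptor complex and its proximal signalling, 0 were higher and 2 lower, and 1 lower after cyclic loess. The 2 are 5.88% of the list, against 2.25% of all genes. Lower calls were more frequent at high levels, with 106 in the decile of genes from 7.09 to 8.36. The mean level of this list was 7.53 and 7.59 on TFoxp3+ arrays and 7.73 and 7.75 on TFoxp3− arrays. It was not compared with genes of like level. Ptpn6, the phosphatase SHP-1 that damps receptor signals, read 5.88 and 5.46 in TFoxp3+ cells, against 9.34 and 9.90 in TFoxp3− cells (−3.95, SE 0.38, adjusted p = 0.0803). Fyn, a kinase of the SRC family, read 6.37 and 5.81 in TFoxp3+ cells, against 8.22 and 8.0 in TFoxp3− cells (−2.01, adjusted p = 0.13). The differences of the other members ran from −2.09 to 2.33 and gave no common direction. The list median was 0.14, and it was −0.01 after median centring and 0.41 after cyclic loess.

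Genes of growth and metabolism gave few calls in each list, where 2.25% of all genes were called lower and 0.722% higher. Lower calls were more frequent at high levels, with 106 and 61 in the 2 highest deciles of genes and 0 in the 2 lowest. The lists were not compared with genes of like level. In ribosome biogenesis 2 of 42 were lower, 1 after cyclic loess, and 0 higher (median −0.90), Bysl of the small subunit (−2.84, adjusted p = 0.111) and Polr1e of RNA polymerase I (−2.43, adjusted p = 0.148). In the amino acid response and serine synthesis list 3 of 21 were lower and 1 higher, and after cyclic loess 0 and 1. Atf4, the factor that drives this response, read 8.85 and 8.29 in TFoxp3+ cells, against 10.84 and 10.45 in TFoxp3− cells (−2.08, adjusted p = 0.132), and the mitochondrial folate enzyme Mthfd2 (−2.20) and the serine enzyme Psph (−1.99) were lower too, while Ddit4 was higher. Of 17 genes of glucose use, Pdk1, a kinase that inhibits pyruvate dehydrogenase (−3.36, adjusted p = 0.14), and the lactate carrier Slc16a1 (−1.81, adjusted p = 0.12) were lower, 1 of them after cyclic loess, and 0 were higher. Of 24 genes of cholesterol synthesis and uptake 1 was lower and 1 higher. Lss, which closes the sterol ring, read 5.22 and 6.18 in TFoxp3+ cells, against 9.18 and 8.79 in TFoxp3− cells (−3.28, adjusted p = 0.114), and Msmo1, which removes methyl groups later in the path, read 8.30 and 9.17 in TFoxp3+ cells, against 5.50 and 4.61 in TFoxp3− cells (3.68, adjusted p = 0.114). The other 22 members were not called.

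Among the largest differences in this direction were also genes outside any of these lists. The isoleucine tRNA synthetase Iars differed by −4.87 with uneven TFoxp3+ arrays of 4.29 and 2.23 (adjusted p = 0.119). Chchd3, which shapes mitochondrial cristae, differed by −4.85, the mitochondrial phosphatase Pgam5 by −4.70 and the iron-sulfur cluster factor Bola3 by −4.67. Nudcd2 read 3.75 and 3.6 in TFoxp3+ cells, against 8.41 and 8.79 in TFoxp3− cells (−4.92, SE 0.33, adjusted p = 0.0787), and Pogz (−4.56) and Wsb1 (−4.48), of a ubiquitin ligase, had the same adjusted p. Snora65 (−4.51) is a small nucleolar RNA that RefSeq places overlapping Rpl12, and its TFoxp3− arrays were 7.22 and 8.91. The TFoxp3+ arrays of these genes read 5.77 or less, near or under the array medians.

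Genes of naive T cells did not shift together. Of 18 genes 1 was higher and 1 lower, with a median of −0.25 against −1.90 in ex vivo cells. Klf2, which maintains quiescence and homing receptors, read 8.07 and 7.66 in TFoxp3+ cells, against 6.21 and 5.90 in TFoxp3− cells (1.81, adjusted p = 0.144), and Satb1 was the lower one. Ccr7 (−0.15) and Il7r (1.39) were not called, nor was Lef1 (2.25, adjusted p = 0.159). The TNF receptor superfamily had 2 of 19 higher, Tnfrsf9 and Tnfrsf1b, a receptor for TNF (2.48, adjusted p = 0.114), and 0 lower. Of 21 CD28 family and inhibitory receptors Ctla4 and Icos alone were called, and Pdcd1 (−0.57), Lag3 (0.83) and Btla (−1.69, adjusted p = 0.181) were not. Of 23 granule and suppressive genes Gzmb, Nt5e and Ctla4 were higher and the serpin Serpinb6b lower (−3.16, adjusted p = 0.114). The lists for the interferon response (23 genes) and for Myc, amino acid and iron uptake (17 genes) had 0 calls in limma, with 4 and 3 at an unadjusted p under 0.05, and Myc itself was at −1.53 (adjusted p = 0.245). Of 22 genes of the BCL-2 family and cell death, Cflar alone was called, and 0 after cyclic loess. The list medians of the CD28 family (0.09, and −0.05 after median centring) and of cell death (−0.02) were near that of all genes.

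**Figure D4:**
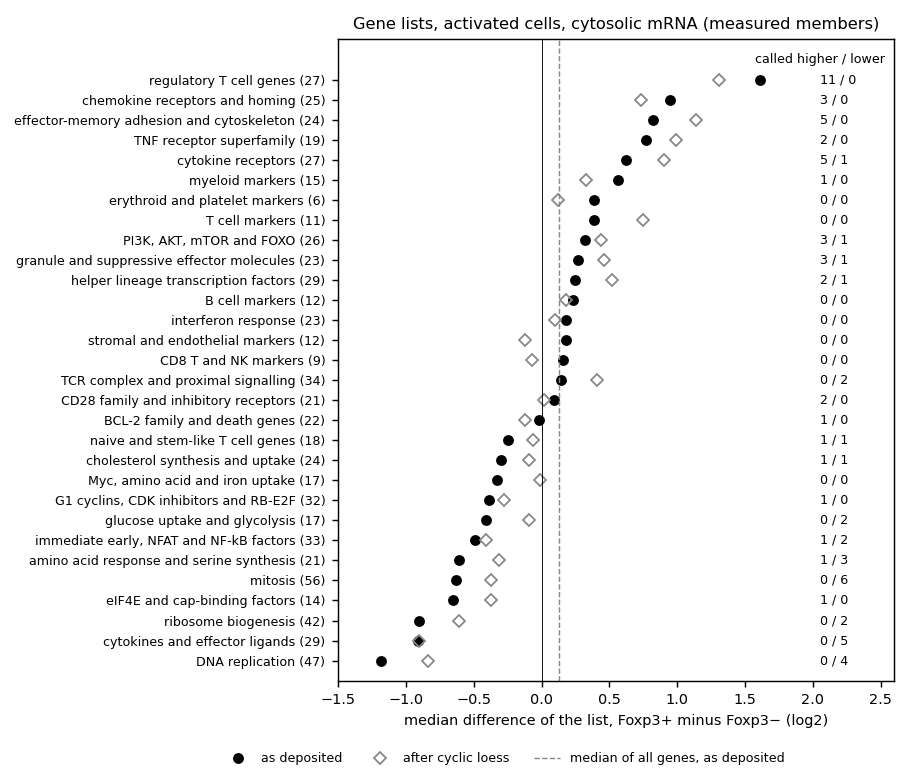
Median difference between activated TFoxp3+ and TFoxp3− cells (log2, x axis) of 30 gene lists, with the number of measured genes beside each name, as deposited (filled circles) and after cyclic loess between the 4 arrays (open diamonds). Counts at the right are genes called higher and lower, and the dashed line is the median of all genes, 0.13. Regulatory T cell genes lie highest at 1.61 and DNA replication lowest at −1.18, and the medians of the CD8 T and NK and the stromal and endothelial markers change sign with loess.

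The purity of the sorted cells was checked on their markers. All 11 measured T cell markers read 6.90 or more on every array, and 0 were called in limma (5 at an unadjusted p under 0.05). Cd4, on which the cells were enriched, read 10.29 and 9.47 in TFoxp3+ cells, against 8.15 and 7.76 in TFoxp3− cells (1.93, adjusted p = 0.166). Cd8a was at 4.17 and 4.14 in TFoxp3+ cells and 3.32 and 3.36 in TFoxp3− cells, under the array medians, as was the B cell marker Ms4a1 (3.20 and 3.06 in TFoxp3+ cells, 3.07 and 3.62 in TFoxp3− cells). Markers of B cells (12), CD8 T and NK cells (9), stroma and endothelium (12), and red cells and platelets (6) gave 0 calls, with 1, 1, 1 and 0 at an unadjusted p under 0.05, and their mean levels lay between 4.32 and 5.10 on TFoxp3+ arrays and between 3.98 and 4.82 on TFoxp3− arrays. Single members stood above these means. Nkg7, of the CD8 T and NK list, read 7.71 and 7.10 in TFoxp3+ cells and 8.11 and 8.31 in TFoxp3− cells. Pecam1, of the endothelial list, read 8.13 and 7.43 against 5.72 and 3.80 (3.02, adjusted p = 0.189). H2-Aa, of the B cell list, read 4.51 and 4.98 against 7.14 and 6.04 (−1.84, adjusted p = 0.216). Above 7 on an array were 2 B cell and 1 CD8 T or NK markers in each subset. So was 1 stromal or endothelial marker, in TFoxp3+ cells. Of 15 myeloid markers Cd68, a lysosomal glycoprotein, was higher, with 7.36 and 6.33 in TFoxp3+ cells, against 2.68 and 3.36 in TFoxp3− cells (3.83, SE 0.50, adjusted p = 0.114). The mean level of the myeloid list was 4.96 and 5.07 in TFoxp3+ cells and 4.25 and 4.38 in TFoxp3− cells, and 9 of the 15 had both TFoxp3+ arrays above both TFoxp3− arrays. Of the 15, 2 had an unadjusted p under 0.05, Cd68 and Fcer1g, a signalling chain of Fc receptors, with 6.10 and 6.22 in TFoxp3+ cells, against 5.13 and 4.77 in TFoxp3− cells. Lyz2, the lysozyme of myeloid cells, read 5.71 and 7.38 in TFoxp3+ cells, against 4.81 and 5.28 in TFoxp3− cells, and Csf1r, Itgam, Adgre1 and Cd14 were under 4.8 on every array. The part of other cells in any of these differences was not tested.

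The same subset difference had been measured in cytosolic mRNA of ex vivo cells, on other arrays, so the differences can be compared gene by gene. Ex vivo samples were also pooled from 2 experiments each. Cycloheximide was in every buffer and medium of the ex vivo cells, while activated cells received it only at the end of the culture. A change of the difference therefore cannot be assigned to the state alone. Of the 119 genes called higher in activated cells 42 were also called higher ex vivo and 21 lower, and of the 371 called lower 170 were also called lower ex vivo and 32 higher, where ex vivo calls took in 15.2% of all genes higher and 16.3% lower. Across all genes the differences of the states correlated with a Pearson coefficient of 0.279 and a Spearman coefficient of 0.265, a description over genes that share no array. Among the actin control probes the 3′ end exceeded the 5′ end by amounts that differed between the ex vivo subsets, 4.64 and 4.16 in TFoxp3+ arrays against 0.85 and 1.38 in TFoxp3− arrays. In activated cells this excess was −0.45 and −0.59 in TFoxp3+ arrays and −0.20 and −0.36 in TFoxp3− arrays. Its part in the comparison of the states was not tested.

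The difference itself departed from that of ex vivo cells for 99 genes in the upward direction (0.601%) and 148 in the downward direction (0.898%) at an adjusted p under 0.05. Of the 119 genes called higher, 44 were among them, and of the 371 called lower, 112. The test takes the spread of a gene as equal in both states, but its median SD was 0.162 ex vivo and 0.376 in activated cells. Residual degrees of freedom were 4, against 2 for activated cells alone, and those added came from the tighter ex vivo replicates. Bola3 passed with an SE of 0.78 (adjusted p = 0.0392), against 0.67 (0.115) in activated cells alone. The p-values of the change may therefore be too small. For Foxp3 (4.55 against 6.72 ex vivo, adjusted p of the change 0.0782), Ctla4 (6.13 against 4.61, 0.305), Il2ra (3.0 against 3.25, 0.864) and Itgae (4.28 against 5.48, 0.353) the change of the difference did not pass the test. Among the 27 regulatory T cell genes it passed in opposite directions for Nt5e, with 4.92 in activated cells and 1.06 ex vivo (change 3.86, SE 0.47, adjusted p = 0.0272), and for Tnfrsf4, the costimulatory receptor OX40, with 0.64 in activated cells and 3.90 ex vivo (change −3.26, adjusted p = 0.0201).

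Several of the largest differences were seen in activated cells and not, or the other way round, ex vivo. Cxcr4 differed by 5.42 in activated cells and by −0.60 ex vivo (change 6.02, SE 0.45, adjusted p = 0.0112), Sgk1 by 4.37 and −1.31 (5.68, adjusted p = 0.0229), Ifngr1 by 4.29 and −0.30 (4.59, adjusted p = 0.0159) and Ino80c by 4.97 and −1.20 (6.17, adjusted p = 0.0112). Lrrc8c, a subunit of a volume-regulated anion channel, differed by 3.06 and −2.08 (5.14, adjusted p = 0.0147). Gfi1 went the other way, −5.95 in activated cells and 0.91 ex vivo (change −6.86, SE 0.42, adjusted p = 0.00914), as did Cenpk (−5.27 and 0.55), Sgo1 (−4.70 and 0.51) and Rfc4 (−4.10 and 0.62). Among the cytokines the change passed for Il4 (−4.78, adjusted p = 0.0112), Csf2 (−4.37, adjusted p = 0.0337) and Xcl1 (−3.12, adjusted p = 0.0409), and did not for Ifng (−4.35, adjusted p = 0.0692) or Il2 (−3.73, adjusted p = 0.22). Without any 1 of the ex vivo arrays 1, 3, 5 and 7 no change passed 0.05 in limma, with 1649 to 1851 genes at an unadjusted p under 0.05. Without array 13 the changes that passed numbered 529 and 648, and without array 15, 456 and 641.

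**Figure D5:**
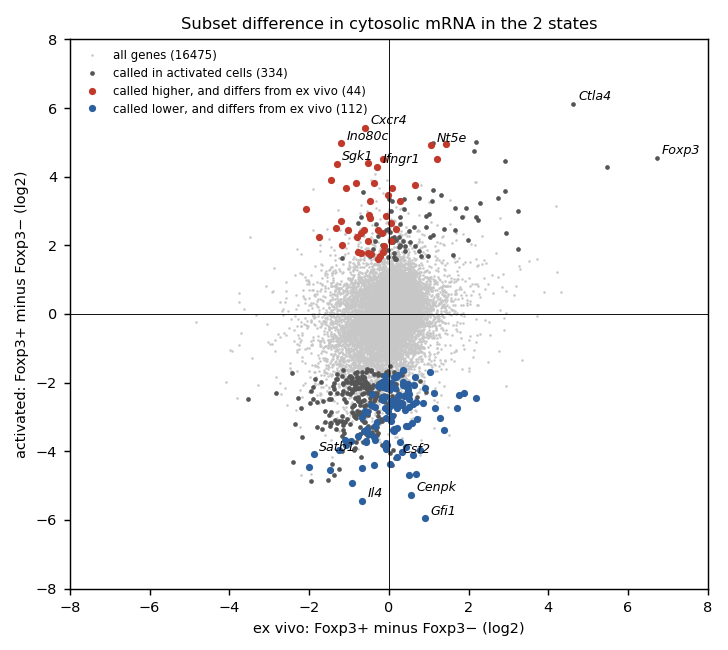
Difference between TFoxp3+ and TFoxp3− cells in cytosolic mRNA (log2) in activated cells (y axis) against ex vivo cells (x axis) for 16475 genes in light grey. Red and blue points are the 44 and 112 genes called higher and lower in activated cells whose difference also departed from that ex vivo, and dark grey points the other called genes. Ctla4 and Foxp3 lie to the upper right, while Cxcr4, Ino80c and Sgk1 lie high at ex vivo differences below 0 and Gfi1 lies low at 0.91.

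Polysome-associated mRNA of activated cells, also 2 arrays a subset, was used to ask whether the cytosolic differences were seen there too. For 95 of the 119 genes called higher and 329 of the 371 called lower the polysome difference had the same sign (79.8% and 88.7%). Over all genes it did so for 76.8% of those with a cytosolic difference above 0 and 58.1% of those below 0. No gene had a polysome difference that departed from its cytosolic one at an adjusted p under 0.05 in limma (smallest 0.268, with 1373 at an unadjusted p under 0.05), and the fit of all 16 arrays called 173 and 201. Ctla4 (6.13 in cytosolic and 5.05 in polysome-associated mRNA), Foxp3 (4.55 and 4.04), Cxcr4 (5.42 and 5.50), Itgae (4.28 and 4.69) and Nt5e (4.92 and 4.44) stood close in the 2 fractions. Il4 (−5.45 and −4.37), Cenpk (−5.27 and −4.70) and Rfc4 (−4.10 and −3.74) were so on the lower side. Others stood farther apart: Il2ra had 3.0 and 0.57, Pdcd4 2.83 and 0.41, Ino80c 4.97 and −1.30, Prkacb 2.71 and −2.48, Lss −3.28 and 1.41, and Cdt1 −2.56 and 0.17, none of which passed the test of that change. Among the 12 largest lower differences, Pgam5 had −4.70 and −0.08, Iars −4.87 and −0.59 and Snora65 −4.51 and −0.46. Wsb1 had −4.48 and −1.02 and Bola3 −4.67 and −1.47. The change did not pass the test for these genes either.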

How the data were processed

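The authors amplified the RNA with a kit for small amounts, hybridised it to Affymetrix arrays and deposited log2 intensities, made by RMA with probes regrouped by Entrez gene. Here 64 control probe sets were left out and all 16475 genes were tested with limma 3.58.1 in R 4.3.3 (lmFit, eBayes, Benjamini-Hochberg, two-sided), with no filter, floor or background value. The study's random variance model was not run. The main comparison used its 4 arrays only, with 2 residual degrees of freedom, because replicates were much less alike after activation than ex vivo. Changes between states or fractions were contrasts over 8 arrays, called at 0.05. Alternatives were larger sets of arrays, array weights, an intensity trend, a level filter, median centring, cyclic loess, quantile normalization and leaving out each array. The fits were tested on simulated data. The methods name biological duplicates, and p-values measure the spread between these. The number of arrays limits precision.

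The comparison, the 30 gene lists (715 measured entries) and the rule for named genes were chosen with earlier results of these data known. The rule names a panel of 20 genes, the 12 largest called differences in each direction with a group mean of 7 or more, 4 genes of each list by adjusted p, and up to 6 genes in each direction that departed from ex vivo cells. Other list members, the families in the closing section and Emp1 were named after their values were seen. Symbols came from the platform table, and 15752 matched RefSeq by Entrez ID. Figures were made with Python 3.11.15 and matplotlib 3.10.9.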

Additional observations from a re-analysis of the deposited data

Results flagged for a closer look

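For 34 genes that were named by the rule and called in activated cells, the difference between activated TFoxp3+ and TFoxp3− cells departed from that between the ex vivo subsets, by limma's test of the change over 8 arrays at an adjusted p under 0.05. The values below are that change on the log2 scale. Genes named by the rule that passed the same test without a call in activated cells were Lef1 (5.74), Cd4 (3.11), Irf9 (2.27), Irf4 (−2.60) and E2f8 (−2.10). Of the genes named outside the rule, Emp1 (4.93), Tgfbr2 (3.99), Il12rb1 (−4.64), Cenph (−3.70), Mrpl30 (−3.48) and Ncaph (−2.73) passed it with a call, and Tnfrsf4 (−3.26) and Pdcd1 (−2.04) without one.

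Toward a higher level in activated TFoxp3+ cells, the change was largest among these called genes in the chromatin remodeller subunit Ino80c (6.17), Cxcr4 (6.02), Sgk1 (5.68) and Lrrc8c (5.14). The sterol enzyme Msmo1 followed with 4.76, Zfp605 with 4.67, Ifngr1 with 4.59 and Cd68 with 4.20. Signalling genes with such a change were Prkacb (3.92), Nt5e (3.86), Il6st (3.77) and Akap13 (3.58). Smaller changes were those of Cpe (3.51), Dennd5a (3.31), Klf2 (2.57) and Itgb7 (2.29).

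Toward a lower level, the repressor Gfi1 had the largest change of them (−6.86). Cell division genes gave Cenpk (−5.82), Sgo1 (−5.21), Rfc4 (−4.72) and Spc25 (−2.66). Among the cytokines were Il4 (−4.78), Csf2 (−4.37) and Xcl1 (−3.12). Factors and signalling genes were Batf (−2.80), Ptpn6 (−2.71) and Satb1 (−2.21), the last of which was also lower in ex vivo TFoxp3+ cells. The others were Bola3 (−5.34), Hgh1 (−4.31), Nudcd2 (−4.01), Wsb1 (−3.82), Pogz (−3.09), Serpinb6b (−2.86) and Bysl (−2.26).

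Subset and array series coincide in activated cells, so these changes cannot be told apart from a difference between the series.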

How the results depend on the processing

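Of 73 named genes called in activated cells none changed sign in any alternative. All 73 were kept by the fit of 16 arrays, 66 by that of the 8 arrays of activated cells and by array weights, 72 after median centring, 63 with an intensity trend, 57 after cyclic loess, 43 after quantile normalization, 71 above the median mean level (the other 2 were not tested) and 58 without array 13, and 0 without array 9, 11 or 15. Genes called higher and lower numbered 119 and 371, and 2275 and 2004 in the fit of 16 arrays, 252 and 551 with 8 arrays, 237 and 555 with array weights, 92 and 184 after cyclic loess, 53 and 83 after quantile normalization, and 0 and 0 at an adjusted p under 0.05. The share of higher calls was 24.3%, and 39.0% after quantile normalization. The fit of 16 arrays took its spread in part from the tighter ex vivo replicates (median SD 0.162, against 0.376 in activated cells). That it kept all 73 genes is therefore no independent check of these calls. Leaving out 1 array gave 0 to 148 higher and 0 to 404 lower. Changes from ex vivo cells numbered 99 and 148, with 72 and 89 with an intensity trend and 97 and 86 after cyclic loess, and leaving out 1 of 8 arrays gave 0 to 529 and 0 to 648. Ex vivo calls of 2497 and 2688 became 340 and 425 in the fit of 16 arrays. Changes between fractions numbered 0 and 0, 173 and 201 in the fit of 16 arrays, and 0 to 1 lower without 1 array. The cause of these shifts was not tested. Signs turned only in genes that were not called. Anapc4 (−0.14) was at 0.17 after cyclic loess and 0.22 after quantile normalization, and without 1 array it ranged from −0.56 to 0.27, Foxo3 from −1.60 to 0.41, Ccne1 from −0.20 to 0.54, Klre1 from −0.11 to 0.83 and Alas2 from −0.39 to 1.19. Where 1 array was left in a group, it is assumed to vary like the other. No paired analysis was possible because the groups share no replicate numbers, and the labels do not say which cytosolic array and which polysome array came from 1 preparation, so the comparison of the fractions left out any such link. The sizes of 131 called differences on the lower and 53 on the higher side are uncertain, since the mean of the lower subset was under the lowest array median.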

Other observations

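Families of genes outside the lists were tallied by name after the values were seen, with no test. Over all genes 2.25% were called lower and 0.722% higher. Of 45 genes with proteasome names, Psma to Psmg, which take in assembly factors beside subunits, 5 were lower in activated TFoxp3+ cells and 0 higher. Their median was −1.08, and −0.67 after cyclic loess. The calls were the assembly factor Psmd10 (−3.11), Psmd14 (−2.64) and the ATPase subunits Psmc1 (−2.43), Psmc2 (−2.00) and Psmc6 (−2.51). Of 73 mitochondrial ribosomal proteins 6 were lower and 0 higher (median −0.77, and −0.42 after loess). Mrpl30, of the large subunit, read 8.62 and 7.55 in TFoxp3+ cells, against 11.80 and 11.08 in TFoxp3− cells (−3.36, adjusted p = 0.118). Aminoacyl-tRNA synthetases had 4 of 35 lower and 0 higher (Iars, Kars, Hars and Mars1, median −0.66, and −0.32 after loess). All 8 measured enzymes of purine synthesis had both TFoxp3+ arrays below both TFoxp3− arrays, and Gmps (−3.56), Gart (−1.74) and Pfas (−1.69) were called. Such families lie at high levels, where the median of all genes was also below 0 (−0.49 and −0.41 in the 2 highest deciles). In contrast 304 numbered zinc finger genes had 1 call in each direction and a median of 0.06, which was −0.08 after loess.

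Of 28 integrin chains 3 were higher and 0 lower, Itgae and Itgb7 of the lists and Itga6 (3.55). Emp1, a membrane protein of epithelia, was also far apart, with 8.74 and 9.33 in TFoxp3+ cells, against 5.19 and 4.09 in TFoxp3− cells (4.40, SE 0.50, adjusted p = 0.111), and its difference ex vivo was −0.53 (change 4.93, adjusted p = 0.0327).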
